A study of Homo sapiens with 24 samples.

Results

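The genes described here are the 10 core members of the MYC, MAX and MXD network: MYC, MYCN, MYCL, MAX, MXD1, MXD3, MXD4, MXI1, MNT and MGA. They were taken by gene symbol from a count table of 63299 genes in ovarian cancer cells, and all 10 had a row in it. RNA had been sequenced from 24 libraries in 8 groups of 3. Platinum-sensitive A2780 cells and the platinum-resistant line A2780cis, an isogenic derivative kept resistant by cisplatin in the medium for a passage at intervals, were each left untreated or given 1 µM 5-FdU-ECyd for 6 h or 12 h. The compound is a prodrug that joins 5-fluoro-2'-deoxyuridine to 3'-C-ethynylcytidine, antimetabolites known to act on DNA and RNA synthesis. In GRCh38, with the gene bounds of GENCODE release 44 and the strand in brackets, the members lie as follows: MYC at chr8:127735434-127742951 (plus), MYCN at chr2:15940550-15947007 (plus), MYCL at chr1:39895428-39902256 (minus), MAX at chr14:65006174-65102695 (minus), MXD1 at chr2:69897688-69942945 (plus), MXD3 at chr5:177301461-177312757 (minus), MXD4 at chr4:2247432-2262109 (minus), MXI1 at chr10:110207605-110287365 (plus), MNT at chr17:2384073-2401104 (minus) and MGA at chr15:41621134-41773081 (plus). The comparisons ask how each line answered the prodrug at each time, whether the lines differed in that answer, and how the untreated lines and times differed. Each platinum state is represented by 1 line, and the paper calls the libraries of a group biological replicates. The p-values set each difference against the spread between libraries within groups, and do not cover other lines.

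Library totals ran from 11077368 to 21901406 counts, and 9 of the 10 members were among the 20240 genes with enough counts to be tested. MYCN was the member left out: 10 of 12 A2780 libraries held 1 to 3 counts of it and all 12 A2780cis libraries held 0, which allows up to 3 counts a library. Of the genes looked up for an ovarian epithelial tumour, KRT18 ranged from 0.72 to 28.4 CPM (counts scaled to a common library size) and KRT8 from 0.57 to 6.80 CPM. EPCAM reached no more than 1.96 CPM. KRT19 had at most 6 counts in any library, and CDH1, PAX8, MUC16 and WT1 at most 2. VIM, a mesenchymal gene on the same list, was high at 788 to 2769 CPM. The endothelial genes PECAM1, VWF, CDH5 and KDR had at most 1 count in any library. Of the immune genes, PTPRC, CD3E and CD14 had at most 3 counts in any library and LYZ at most 3.5, while CD68 was present in every library at 2.22 to 8.38 CPM. Of the fibroblast markers, COL3A1 averaged 243 CPM in A2780 and 1748 CPM in A2780cis. The others were lower in A2780cis: PDGFRA averaged 116 and 2.21 CPM, COL1A1 9.35 and 1.35 CPM, DCN 8.11 and 0.90 CPM, and LUM 2.53 and 0.56 CPM.

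The network is built around MAX, a small protein of the basic helix-loop-helix leucine zipper class that has no activation domain of its own. MYC, MYCN and MYCL dimerise with MAX, bind the E-box and recruit coactivators to genes of growth, ribosome production and metabolism. The MXD proteins (MXD1, MXD3, MXD4 and MXI1), MNT and MGA compete for the same partner and the same sites, and bring SIN3 corepressors or, for MGA, a Polycomb-type complex. MYC transcript and protein both turn over rapidly. MXD1 and MXD4 are best known from cells that leave the cycle and differentiate, MXD3 from cycling cells, and MNT from cells in either state.

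The E-box is a short palindrome, so that the letters CACGTG read alike on both strands, and it was looked for in the RefSeq promoter windows of GRCh38.p14 (250 bases before to 50 after each gene start). Windows were held for 9 of the 10 members, all but MYC, and CACGTG was found in those of MXD4 and MNT. Across all 35116 windows 7.26% held it. The outer 150 bases of both windows, from base 250 to base 101 before the gene start, are shown 5′ to 3′ on the gene's strand with the E-box in capitals, because they are the members whose windows carry the letters that the network binds, and both are described after treatment further on.
MXD4, chr4:2262210-2262359, minus strand: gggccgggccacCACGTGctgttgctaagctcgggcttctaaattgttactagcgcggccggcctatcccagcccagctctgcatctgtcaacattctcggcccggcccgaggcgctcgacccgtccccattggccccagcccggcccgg
MNT, chr17:2401161-2401310, minus strand: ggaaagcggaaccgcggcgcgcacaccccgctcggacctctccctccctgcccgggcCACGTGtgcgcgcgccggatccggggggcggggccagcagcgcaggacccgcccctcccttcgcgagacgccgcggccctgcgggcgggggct

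The E-box began 238 bases before the gene start of MXD4 and 193 bases before that of MNT. These starts are those of the RefSeq windows and are not always the GENCODE bounds given in the opening. The windows held for MAX, MXD1, MXD3, MXI1, MGA, MYCL and MYCN did not contain these letters. A match of letters is a description of the window and shows no binding.

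To compare levels between genes, counts were divided by the summed exon length of each gene in GENCODE release 44 and scaled to TPM, a length-corrected share of the library. In untreated A2780 at 6 h MXD3 led with 68.9 ± 7.08 TPM (SD, n = 3), followed by MYC at 26.8 ± 4.35 TPM and by MGA and MAX at 16.01 ± 1.43 and 14.3 ± 1.44 TPM, whose libraries overlapped. MXD1 followed at 6.29 ± 0.37 TPM, then MXD4, MNT and MXI1 between 3.58 and 3.08 TPM with overlapping libraries, MYCL at 0.678 ± 0.069 TPM and MYCN at 0.118 TPM. MYC was thus the main MYC family transcript, and it stood above MAX, without overlap between libraries, in 7 of the 8 groups. The exception was A2780 treated for 12 h, where MYC (16.6 ± 0.34 TPM) and MAX (16.02 ± 0.43 TPM) overlapped. With the length of the longest transcript in place of summed exons, MAX passed MYC in that group and MAX passed MGA in untreated A2780 at 6 h.

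MXD3 kept the first place in every group with either length, but its level is uncertain. In GENCODE release 44 it shares 24.2% of its exon bases with PRELID1, a mitochondrial lipid transfer protein on the opposite strand, and 19.5% with RAB24, a small GTPase on the same strand. Reads in shared exons had been split between genes, and the strand setting of the counting is not given. The 2 genes next in overlap were MAX, with 13.1% of its exon bases shared with FNTB on the opposite strand, and MNT, with 12.2% shared with a long noncoding RNA gene on the opposite strand. The other members shared less than 5% with any one gene.

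MYC fell after treatment in both lines and at both times. In A2780 the 3 untreated libraries at 6 h held 48.9, 70.1 and 66.2 CPM and the treated ones 38.3, 37.4 and 32.8 CPM. At 12 h the untreated libraries held 87.4, 91.8 and 103 CPM and the treated ones 36.1, 35.2 and 33.2 CPM. Every treated library lay below every untreated one at its time, and the treated level hardly differed between the times (36.2 ± 2.94 and 34.8 ± 1.49 CPM), while the untreated level was higher at 12 h. The log2 fold change (FC) was -0.77 ± 0.12 (SE) at 6 h and -1.44 ± 0.11 at 12 h, or 1.70-fold and 2.70-fold lower, with adjusted p = 1.89e-05 and 8.02e-11 (quasi-likelihood test of edgeR, adjusted by Benjamini-Hochberg over all genes tested, as for every edgeR adjusted p given here). Since CPM is a share of a library, fewer cells with the transcript and less of it per cell cannot be told apart, and a change in the total RNA of a cell is not seen.

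In A2780cis, MYC held 92.4, 116 and 113 CPM untreated and 71.6, 74.8 and 75.7 CPM treated at 6 h. At 12 h the values were 89.2, 99.6 and 107 CPM untreated and 66.7, 69.0 and 66.2 CPM treated. The groups did not overlap at either time, and the log2 FC was nearly the same at both, -0.54 ± 0.11 at 6 h and -0.55 ± 0.11 at 12 h (edgeR adjusted p = 0.00061 and 0.000118). Treated A2780cis cells at 12 h thus held 67.3 ± 1.49 CPM of MYC where treated A2780 cells held 34.8 CPM, from untreated levels of 98.7 ± 9.07 and 94.1 ± 8.15 CPM.

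MYCL, a family member of narrower tissue distribution, was low throughout, at 11 to 91 counts a library. Treated A2780cis libraries at 6 h held 2.87, 3.80 and 3.72 CPM against 3.79, 6.32 and 4.66 CPM untreated, which overlap, and the log2 FC of -0.49 ± 0.19 passed narrowly (edgeR adjusted p = 0.0496). This call was lost in 5 of the 6 fits that left out 1 library and in 4 of 7 other settings. The log2 FC of MYCL was 0.01 and 0.26 in A2780 at 6 h and 12 h and -0.21 in A2780cis at 12 h (edgeR adjusted p = 0.993, 0.256 and 0.314).

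**Figure D1:**
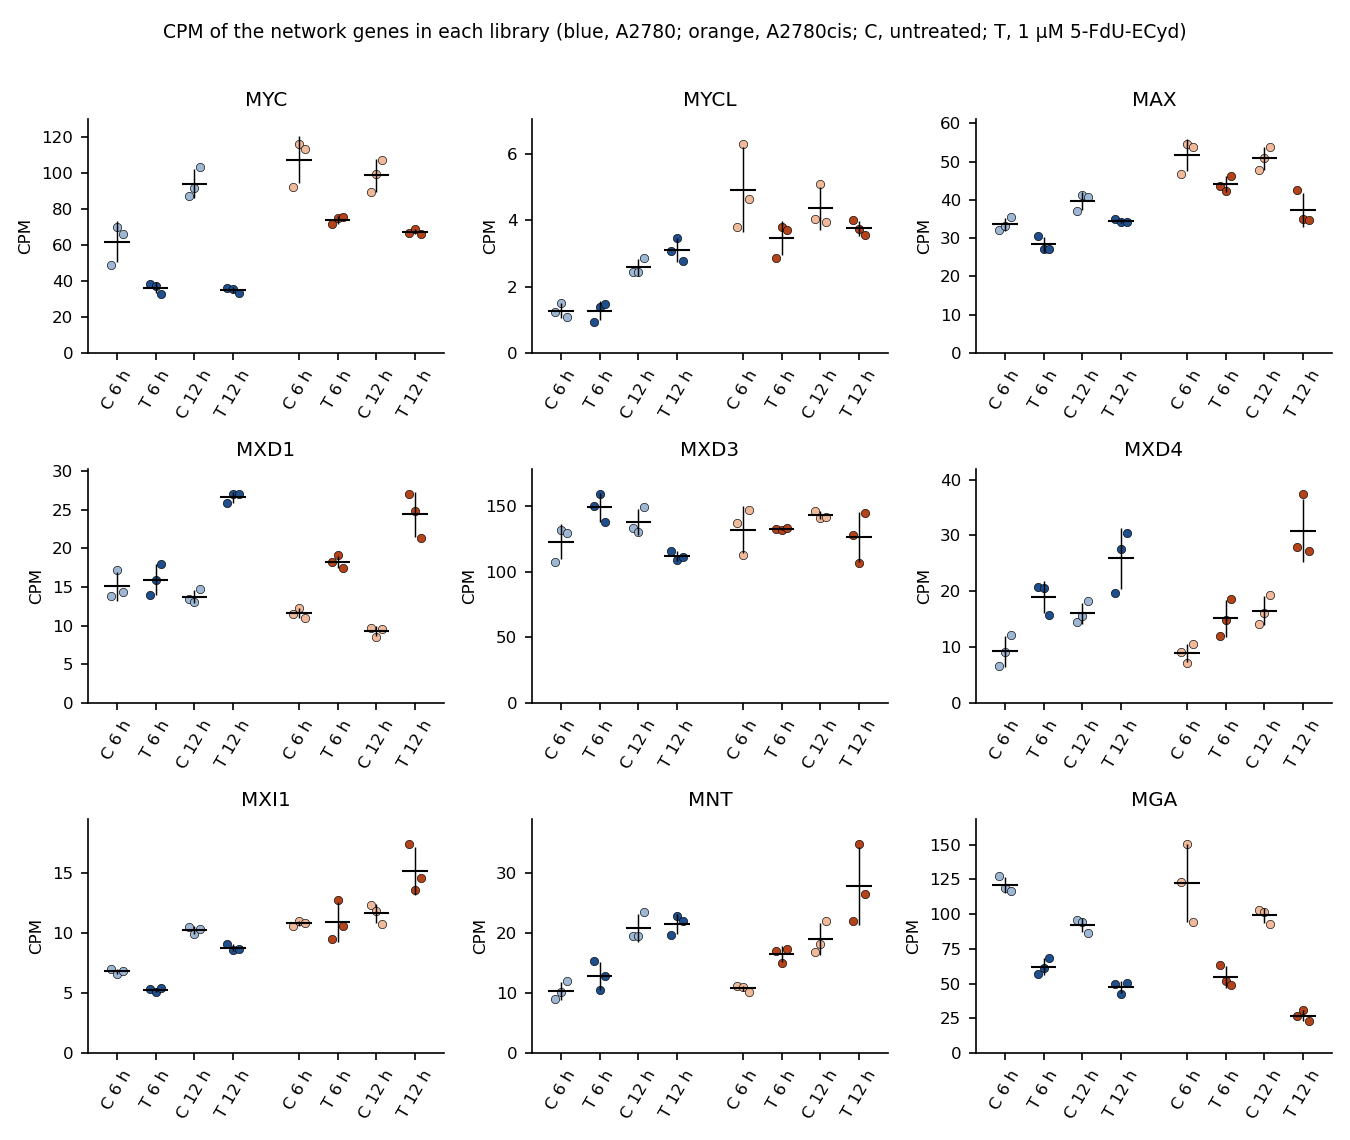
CPM (y axis, linear from 0) of the 9 members that passed the filter in each of the 24 libraries, by group on the x axis (C, untreated; T, 1 µM 5-FdU-ECyd; blue, A2780; orange, A2780cis). Points are libraries, horizontal bars the group means and vertical bars the SD over 3 libraries. MYC and MGA lie lower in every treated group than in its untreated group, and MXD4 lies higher.

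MAX, the shared partner, was slightly lower in every treated group, although in A2780 at 12 h its log2 FC was 0.02 when libraries were scaled by their totals alone. Its libraries held 32.2, 33.0 and 35.6 CPM in untreated A2780 at 6 h and 30.6, 27.1 and 27.3 CPM in treated ones. In A2780cis at 12 h they held 47.8, 51.0 and 53.7 CPM untreated and 42.6, 35.0 and 34.7 CPM treated. Treated libraries lay below untreated ones in all 4 treatment comparisons, and in edgeR the last passed the test, with a log2 FC of -0.44 ± 0.09 (edgeR adjusted p = 0.000266). The other log2 FC values were -0.24 in A2780 at 6 h, -0.20 in A2780 at 12 h and -0.23 in A2780cis at 6 h, with adjusted p of 0.0654, 0.0731 and 0.0698 in edgeR. With DESeq2, MAX passed at 6 h in A2780 (-0.28, DESeq2 adjusted p = 0.0258) and in A2780cis (-0.25, DESeq2 adjusted p = 0.0394), and in edgeR with the size factors of DESeq2 it passed at 6 h in A2780 (adjusted p = 0.0329). Without untreated replicate 1 it passed in A2780 at 12 h (-0.27, edgeR adjusted p = 0.0359) and in A2780cis at 6 h (-0.30, edgeR adjusted p = 0.0381). FNTB, which shares exon bases with MAX, had log2 FC values of 0.20, 0.19, 0.16 and -0.13 in those 3 comparisons and A2780cis at 12 h, none of which passed.

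Among the MXD genes, MXD1 rose late in A2780 and at both times in A2780cis. It held 13.8, 17.2 and 14.3 CPM untreated and 13.9, 15.9 and 18.0 CPM treated in A2780 at 6 h, with overlapping libraries and a log2 FC of 0.08 ± 0.12 (edgeR adjusted p = 0.63). At 12 h the same line held 13.5, 13.0 and 14.7 CPM untreated and 25.8, 27.0 and 27.0 CPM treated, a 1.93-fold rise (log2 FC 0.95 ± 0.11, edgeR adjusted p = 7.2e-08). The treated A2780 libraries were close together and lay far above the untreated ones.

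In A2780cis, MXD1 held 11.6, 12.2 and 10.96 CPM untreated and 18.2, 19.1 and 17.5 CPM treated at 6 h. At 12 h it held 9.73, 8.53 and 9.55 CPM untreated and 27.0, 24.9 and 21.3 CPM treated. No libraries overlapped, and the rise was 1.57-fold at 6 h and 2.62-fold at 12 h (log2 FC 0.65 ± 0.12 and 1.39 ± 0.11, edgeR adjusted p = 0.000158 and 1.21e-10). SNRNP27, a splicing factor gene on the same strand with which MXD1 shares 3.73% of its exon bases, also rose, with log2 FC of 0.30, 0.56, 0.46 and 0.84 in A2780 at 6 h and 12 h and A2780cis at 6 h and 12 h (edgeR adjusted p of 0.0422, 7.64e-05, 0.00276 and 3.07e-07), and its part in the counts of MXD1 was not tested.

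MXD4 rose in all 4 treatment comparisons. It went from 6.53, 9.08 and 12.1 CPM to 20.7, 20.5 and 15.7 CPM in A2780 at 6 h, a 2.07-fold rise (log2 FC 1.05 ± 0.21, edgeR adjusted p = 0.000607). At 12 h it went from 14.5, 15.5 and 18.2 CPM to 19.8, 27.6 and 30.4 CPM (log2 FC 0.69 ± 0.19, edgeR adjusted p = 0.00342). The lowest treated library lay above the highest untreated one at both times, but the SD of the treated group at 12 h, 5.50 CPM, was the wider.

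In A2780cis, MXD4 went from 9.15, 7.22 and 10.5 CPM to 12.0, 14.9 and 18.6 CPM at 6 h and from 14.1, 16.1 and 19.4 CPM to 27.9, 37.4 and 27.2 CPM at 12 h. The log2 FC was 0.76 ± 0.21 and 0.90 ± 0.19 (edgeR adjusted p = 0.00833 and 0.000223), again without overlap. The 6 h call rested on single libraries: without untreated replicate 2 the log2 FC was 0.64 (edgeR adjusted p = 0.0568), and without treated replicate 3 it was 0.58 (edgeR adjusted p = 0.0777).

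MXI1 was lower in treated A2780 and, at 12 h, higher in treated A2780cis. In A2780 it went from 7.04, 6.62 and 6.82 CPM to 5.37, 5.09 and 5.41 CPM at 6 h, and from 10.6, 9.90 and 10.3 CPM to 9.11, 8.60 and 8.70 CPM at 12 h. Every treated A2780 library lay below the untreated ones, with log2 FC of -0.37 ± 0.14 (edgeR adjusted p = 0.0425) and -0.22 ± 0.12 (edgeR adjusted p = 0.105). The 6 h call was lost in each of the 6 fits without 1 library, where edgeR adjusted p ran from 0.0668 to 0.133. In A2780cis it held 10.6, 11.03 and 10.9 CPM untreated and 9.49, 12.8 and 10.6 CPM treated at 6 h (log2 FC 0.02 ± 0.12), and it rose from 12.3, 11.9 and 10.7 CPM to 17.5, 13.6 and 14.6 CPM at 12 h (log2 FC 0.38 ± 0.11, edgeR adjusted p = 0.00436). Without treated replicate 1 that last value was 0.24 (edgeR adjusted p = 0.0752).

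MXD3 and its neighbour PRELID1 changed in the same direction in A2780 at both times. Treated A2780 libraries at 6 h held 150, 159 and 138 CPM against 108, 132 and 130 CPM untreated (log2 FC 0.28 ± 0.11, edgeR adjusted p = 0.0493), and PRELID1 changed by 0.32 in the same libraries (edgeR adjusted p = 0.0247). At 12 h treated A2780 held 116, 109 and 111 CPM of MXD3 against 134, 131 and 149 CPM (log2 FC -0.30 ± 0.10, edgeR adjusted p = 0.0171), and PRELID1 changed by -0.47 (edgeR adjusted p = 0.000558). In A2780cis, MXD3 held 137, 113 and 147 CPM untreated and 133, 132 and 134 CPM treated at 6 h, and 147, 141 and 142 CPM untreated and 128, 106 and 145 CPM treated at 12 h, with overlap at both times. The log2 FC of MXD3 there was 0.01 at 6 h and -0.18 at 12 h, where that of PRELID1 was 0.05 and -0.25. RAB24, the other neighbour, had log2 FC of 0.31, 0.33, -0.12 and -0.13. Both A2780 calls of MXD3 were lost when single libraries were left out, at 6 h without untreated replicate 1 or 3 or treated replicate 1 or 2, and at 12 h without untreated replicate 3 or treated replicate 2. How far MXD3 itself moved cannot be told apart from its neighbours in these counts.

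MNT, the antagonist present in most cell types, passed the test in A2780cis at both times and in A2780 at neither, and its interactions of 0.31 at 6 h and 0.50 at 12 h did not pass (edgeR adjusted p = 0.595 and 0.083). In A2780cis it went from 11.1, 10.9 and 10.2 CPM to 17.1, 15.04 and 17.4 CPM at 6 h (log2 FC 0.62 ± 0.16, edgeR adjusted p = 0.00503). At 12 h it went from 16.8, 18.2 and 22.02 CPM to 21.97, 34.8 and 26.4 CPM (log2 FC 0.55 ± 0.15, edgeR adjusted p = 0.00226). The libraries at 12 h touch, the highest untreated one lying just above the lowest treated one. A2780 held 8.97, 10.2 and 11.9 CPM untreated and 15.3, 10.5 and 12.7 CPM treated at 6 h, and 19.4, 19.4 and 23.5 CPM untreated and 19.6, 22.9 and 22.1 CPM treated at 12 h, with log2 FC of 0.31 and 0.05 (edgeR adjusted p = 0.164 and 0.792).

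MGA, a very large dual-domain factor that also carries a T-box and scaffolds a Polycomb complex, fell most of all members in A2780cis. Its A2780 libraries held 127, 118 and 116 CPM untreated and 57.1, 60.8 and 68.6 CPM treated at 6 h. At 12 h they held 95.7, 94.3 and 86.4 CPM untreated and 49.5, 42.5 and 50.6 CPM treated. The log2 FC was -0.96 ± 0.13 and -0.95 ± 0.13 (edgeR adjusted p = 5.72e-06 and 9.67e-07), about the same at both times and without overlap.

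In A2780cis, MGA went from 123, 150 and 94.4 CPM to 63.5, 51.6 and 48.6 CPM at 6 h. At 12 h it went from 103, 101 and 93.0 CPM to 26.5, 31.0 and 22.9 CPM, the lowest MGA levels of the series. That is a 2.25-fold fall at 6 h and a 3.69-fold fall at 12 h (log2 FC -1.17 ± 0.13 and -1.88 ± 0.14, edgeR adjusted p = 2.89e-07 and 1.23e-11). At 12 h, 1.85% of all genes tested had a log2 FC at or below that of MGA.

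Counted over the 9 members tested, 5 were called in A2780 at 6 h (MXD3 and MXD4 higher, MYC, MXI1 and MGA lower), where 29.4% of all genes were called (16% higher, 13.4% lower). At 12 h, 5 were called in A2780 (MXD1 and MXD4 higher, MYC, MXD3 and MGA lower), against 54.8% of all genes (28.6% higher, 26.1% lower). In A2780cis 6 were called at 6 h (MXD1, MXD4 and MNT higher, MYC, MYCL and MGA lower) against 30.7% (14.4% higher, 16.3% lower), and 7 at 12 h (MXD1, MXD4, MXI1 and MNT higher, MYC, MAX and MGA lower) against 59.9% (31.0% higher, 28.9% lower). In A2780 at 12 h the share of members called is close to that of all genes. The median size of the log2 FC, sign ignored, was 0.30 for the members and 0.48 for all genes in A2780 at 12 h, and 0.55 and 0.56 in A2780cis. MYC, MXD4 and MGA were called in the same direction in all 4 comparisons.

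**Figure D2:**
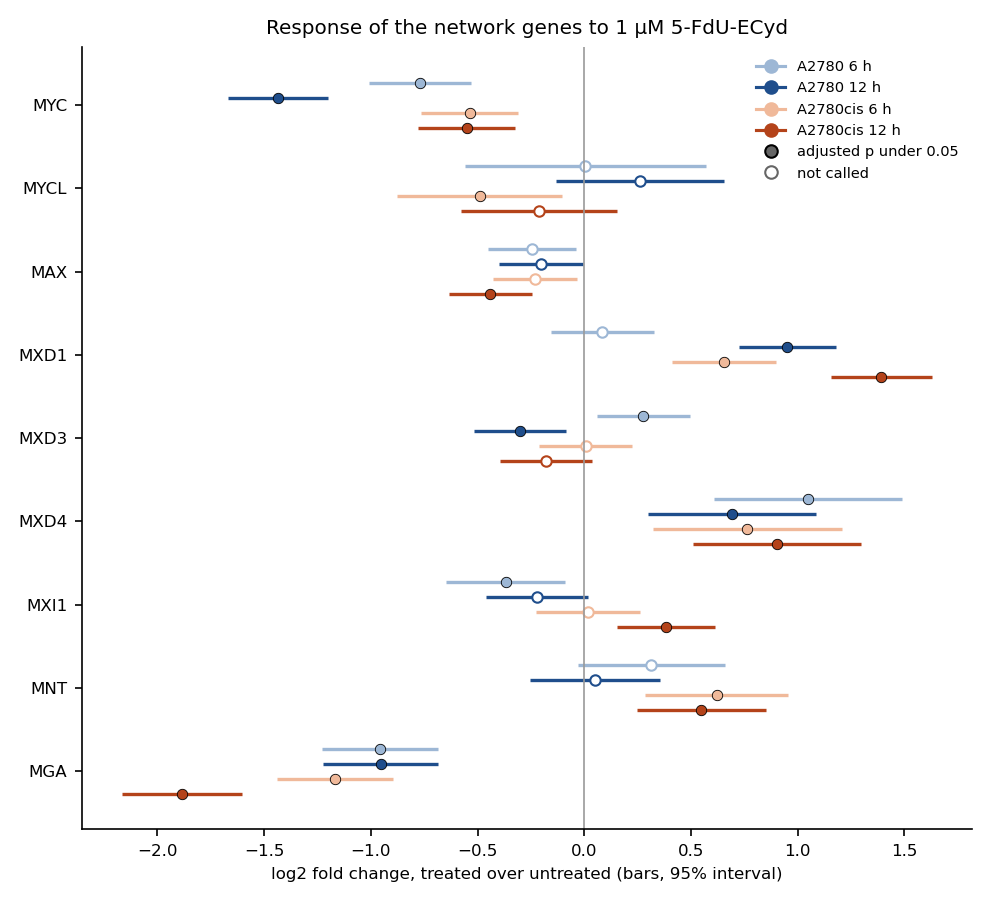
Log2 FC of treated over untreated (x axis) for the 9 members tested, with 1 row of 4 comparisons for each gene on the y axis. Points are fitted values, filled where the adjusted p is under 0.05, and bars the 95% interval. MYC lies at -1.44 in A2780 at 12 h and at -0.55 in A2780cis at 12 h, and MGA at -0.95 and -1.88.

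The lines differed in the 12 h response of 4 members. The interaction, the log2 FC in A2780cis minus that in A2780, was 0.88 ± 0.16 for MYC (edgeR adjusted p = 0.000254), 0.61 ± 0.16 for MXI1 (edgeR adjusted p = 0.00781) and 0.44 ± 0.16 for MXD1 (edgeR adjusted p = 0.0445). For MGA it was -0.93 ± 0.19 (edgeR adjusted p = 0.000874). MYC thus fell less and MGA fell more in the platinum-resistant line, MXD1 rose more there, and MXI1 rose there where its A2780 value of -0.22 did not pass. These 4 of 9 members compare with 23.7% of all genes (9.70% higher, 14.0% lower). The MXD1 interaction was lost in 10 of 12 fits without 1 library, where it ran from 0.35 to 0.48.

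At 6 h no interaction of a member passed the test in edgeR, where 3.07% of all genes did (0.692% higher, 2.38% lower). At an unadjusted p under 0.05, 2 of the 9 did: MXD1, with an interaction of 0.57 ± 0.17 (unadjusted p = 0.00221, edgeR adjusted p = 0.061), and MXI1, with 0.38 ± 0.18 (unadjusted p = 0.043, edgeR adjusted p = 0.291). DESeq2 called MXD1 alone, with 0.59 (DESeq2 adjusted p = 0.0318). The 95% interval of the MYC interaction at 6 h ran from -0.10 to 0.56.

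The response differed between 6 h and 12 h in some members. In A2780 the log2 FC at 12 h minus that at 6 h was -0.67 ± 0.16 for MYC (edgeR adjusted p = 0.00392), 0.87 ± 0.16 for MXD1 (edgeR adjusted p = 0.000445) and -0.58 ± 0.15 for MXD3 (edgeR adjusted p = 0.0062), 3 of 9 members against 23.7% of all genes (10.7% higher, 13.0% lower). For MXD3 this was a change of direction, from 0.28 to -0.30. In A2780cis it was 0.74 ± 0.16 for MXD1 (edgeR adjusted p = 0.00215) and -0.72 ± 0.19 for MGA (edgeR adjusted p = 0.00697), 2 of 9 against 24% (10.3% higher, 13.6% lower). MYC changed by -0.02 ± 0.16 between the times in A2780cis, with a 95% interval from -0.34 to 0.30.

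Some members already differed between the untreated lines. The median size of the log2 difference, sign ignored, was 0.38 for the members and 0.44 for all genes at 6 h, and 0.13 and 0.45 at 12 h. At 6 h, A2780cis held more MYC (log2 difference 0.80 ± 0.11), MYCL (1.94 ± 0.23), MAX (0.62 ± 0.10) and MXI1 (0.67 ± 0.13) than A2780, and less MXD1 (-0.38 ± 0.12). The edgeR adjusted p-values were 1.17e-06, 5.82e-08, 6.01e-06, 8.76e-05 and 0.0116, so 5 of 9 members against 47.9% of all genes (25.0% higher, 22.9% lower). The MXD1 call was lost without untreated A2780 replicate 2 (-0.28, edgeR adjusted p = 0.0898) or without untreated A2780cis replicate 3 (-0.34, edgeR adjusted p = 0.0515). None of these 5 called genes overlapped between the lines, but how often this held over all genes was not counted. Untreated MYCL, for example, held 1.22, 1.51 and 1.09 CPM in A2780 and 3.79, 6.32 and 4.66 CPM in A2780cis.

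At 12 h 3 members differed, against 52.9% of all genes (25.4% higher, 27.5% lower). MYCL (0.75 ± 0.18, edgeR adjusted p = 0.00126) and MAX (0.36 ± 0.09, edgeR adjusted p = 0.00234) were still higher and MXD1 (-0.57 ± 0.12, edgeR adjusted p = 0.000185) still lower in A2780cis. For MYC the difference was 0.07 ± 0.11, with a 95% interval from -0.16 to 0.29.

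That narrowing went with a change over time in untreated A2780. From 6 h to 12 h without the prodrug, this line gained MYC (0.61 ± 0.11), MYCL (1.03 ± 0.23), MXD4 (0.81 ± 0.21), MXI1 (0.59 ± 0.12) and MNT (1.01 ± 0.16), and lost MGA (-0.39 ± 0.13), with edgeR adjusted p-values of 0.000944, 0.00342, 0.00759, 0.00222, 0.000357 and 0.0267. These were 6 of 9 members against 26.9% of all genes (16.6% higher, 10.3% lower). The MXD4 call was lost without untreated replicate 1 at 6 h (0.60, edgeR adjusted p = 0.0808), and the MGA call in 4 of the 6 fits without 1 library, without untreated replicate 1 or 2 at 6 h or 2 or 3 at 12 h. In untreated A2780cis 3 members changed, against 39.9% of all genes (18.0% higher, 21.9% lower): MXD4 (0.88 ± 0.21) and MNT (0.82 ± 0.16) rose and MXD1 fell (-0.32 ± 0.12), with edgeR adjusted p-values of 0.0023, 0.00039 and 0.0404. The MXD1 call was lost in 5 of the 6 fits without 1 library. Untreated library totals did not overlap between the times. In A2780 they ran from 11216446 to 14372622 counts at 6 h and from 15253875 to 19283327 at 12 h. In A2780cis they ran from 11077368 to 14109992 at 6 h and from 17628534 to 21366058 at 12 h. Depth and time thus go together in these differences, and the part of depth was not tested.

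The balance of the network was described as the TPM of MYC, MYCN and MYCL as a share of their sum with the antagonists, with no test. In A2780 the share was 19.3%, 22.9% and 21.9% in the untreated libraries at 6 h and 13.3%, 12.6% and 12.5% in the treated ones. At 12 h it was 26.5%, 27.8% and 27.9% untreated and 14.8%, 14.8% and 13.5% treated. In A2780cis it was 27.8%, 35.2% and 31.7% untreated and 23.8%, 24.8% and 24.8% treated at 6 h. The 12 h values there were 26.1%, 28.9% and 29.8% untreated and 21.8%, 23.3% and 20.6% treated. The share was lower in all treated libraries of both lines than in the untreated ones at the same time. Without MXD3, whose counts are uncertain, the shares were higher but kept this order: 54.7 ± 1.39% untreated and 30.9 ± 2.36% treated in A2780 at 12 h, and 56.7 ± 1.72% and 43.4 ± 2.07% in A2780cis.

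**Figure D3:**
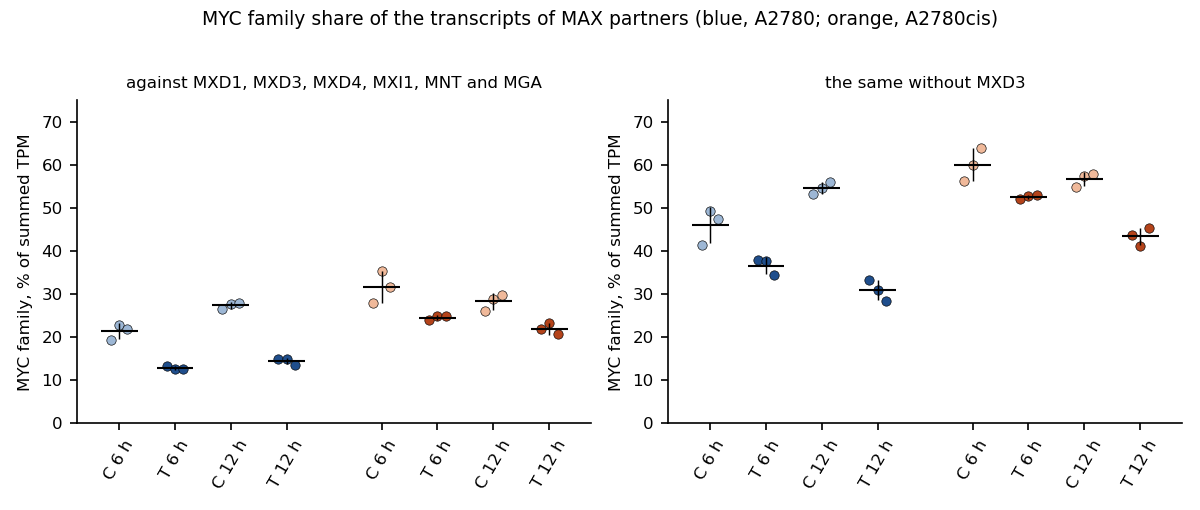
Share of MYC, MYCN and MYCL in the summed TPM of the MYC family and its antagonists (y axis, percent, linear from 0) in each library, by group on the x axis (C, untreated; T, treated; blue, A2780; orange, A2780cis), with all 6 antagonists on the left and without MXD3 on the right. Points are libraries, bars the mean and SD over 3 libraries. All treated libraries lie below the untreated ones of their line and time.

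The MLX arm, in which MLX takes the place of MAX and pairs with glucose-sensing factors, was followed with other E-box factors in a list of 6 genes, of which 1 rose and 2 fell in A2780 at 12 h and 2 rose and 3 fell in A2780cis. Of all genes at 12 h, 28.6% rose and 26.1% fell in A2780, and 31.0% rose and 28.9% fell in A2780cis. MLXIPL, the carbohydrate-response factor ChREBP, rose in all 4 comparisons, with log2 FC of 1.57, 1.81, 1.44 and 1.14 in A2780 at 6 h and 12 h and A2780cis at 6 h and 12 h (edgeR adjusted p of 0.00048, 4.6e-07, 7.3e-05 and 3.12e-05). Its level in A2780 went from 2.68 ± 0.80 to 9.47 ± 1.30 CPM at 12 h. MLXIP, the related factor MondoA, fell in A2780cis at 6 h and 12 h (-0.64 and -0.85, edgeR adjusted p of 0.00313 and 3.49e-05). Its A2780 values were 0.07 at 6 h and -0.36 at 12 h (edgeR adjusted p of 0.768 and 0.0514), and the difference between the lines did not pass at either time (edgeR adjusted p of 0.0828 and 0.1). MLX itself stayed between -0.09 and -0.01 in all 4 comparisons with no call. TFAP4, a helix-loop-helix factor known as a MYC target, fell at 12 h in both lines (-1.65 in A2780 and -1.25 in A2780cis, edgeR adjusted p of 8.89e-08 and 4.39e-06). USF2 fell at 12 h in both lines, by 0.39 and 0.56 on the log2 scale, and USF1 rose in A2780cis at 12 h (0.37, edgeR adjusted p = 0.00149).

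Of 8 SIN3 and NCOR corepressor genes through which MXD proteins act, 4 fell and none rose in A2780 at 12 h, where 26.1% of all genes fell and 28.6% rose. In A2780cis 4 fell and 1 rose, against 28.9% and 31.0% of all genes. The median log2 FC of the list was -0.25 and -0.32, against 0.02 and 0.04 over all genes. NCOR1 (-0.99 and -1.45), SIN3A (-0.72 and -0.98) and HDAC2 (-0.71 and -0.69) fell in both lines, and HDAC1 was the gene that rose in A2780cis (0.36, edgeR adjusted p = 0.000184). SIN3A and NCOR1 had already fallen at 6 h in both lines.

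Of 12 coactivators and partners of MYC, 9 fell and 1 rose at 12 h in each line. The shares of all genes were 26.1% lower and 28.6% higher in A2780, and 28.9% and 31.0% in A2780cis. TRRAP, the scaffold of MYC-bound acetyltransferases, fell by 1.06 in A2780 and by 1.64 in A2780cis on the log2 scale. WDR5, a chromatin anchor of MYC, fell in A2780cis (-0.95, edgeR adjusted p = 5.49e-09), while its value in A2780 was -0.04 (edgeR adjusted p = 0.739). RUVBL1 fell in A2780 (-0.70, edgeR adjusted p = 6.4e-08), where its A2780cis value was -0.12. The gene that rose in both lines was ZBTB17, which encodes MIZ1, a partner in repression by MYC (0.48 and 0.42, edgeR adjusted p of 0.0226 and 0.0399).

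Of 9 partners of MGA in its Polycomb complex, 3 fell and 1 rose in A2780 at 12 h, where 26.1% of all genes fell and 28.6% rose. In A2780cis 7 fell and 1 rose, against 28.9% and 31.0% of all genes. TFDP1 (-0.44 and -0.99) and PCGF6, the subunit that defines the complex (-0.46 and -0.91), fell in both lines, and E2F6 fell in A2780cis (-0.61, edgeR adjusted p = 6.75e-06). RING1 rose in both lines at both times (0.80 and 0.54 at 12 h).

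Among 12 regulators of MYC protein turnover, 9 fell and 1 rose in A2780 at 12 h, where 26.1% of all genes fell and 28.6% rose. In A2780cis 10 regulators fell and 2 rose, against 28.9% and 31.0% of all genes. The gene that rose in every comparison was FBXW7, which encodes the ubiquitin ligase subunit that marks MYC for destruction, with log2 FC of 1.14 and 1.85 in A2780 at 6 h and 12 h and of 0.59 and 1.25 in A2780cis (edgeR adjusted p of 2.49e-09, 2.25e-14, 3.89e-05 and 1.95e-11). Its level in A2780 at 12 h was 21.5 ± 1.81 CPM untreated and 77.3 ± 0.82 CPM treated. PLK1 and AURKA, mitotic kinases also known to stabilise MYC proteins, fell in every comparison, to -2.56 and -1.41 in A2780 and to -3.30 and -1.87 in A2780cis at 12 h. AXIN1, GSK3B and CIP2A fell in every comparison as well.

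PVT1, the long noncoding RNA gene beside MYC, was the 1 gene of 7 such neighbours of the MYC family with enough counts to be tested. It held 7.59, 7.18 and 8.43 CPM untreated and 10.0, 11.1 and 10.5 CPM treated in A2780 at 12 h. In A2780cis at 12 h it held 11.4, 11.5 and 10.8 CPM untreated and 16.4, 15.5 and 16.3 CPM treated. It thus rose at 12 h in both lines (log2 FC 0.45 ± 0.11 and 0.52 ± 0.10, edgeR adjusted p = 0.00103 and 0.000117), where MYC fell. At 6 h the values were -0.32 in A2780 (edgeR adjusted p = 0.0443) and 0.21 in A2780cis (edgeR adjusted p = 0.133).

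Most of the listed genes known to be induced by MYC fell at 12 h. Of 34 such genes of ribosome biogenesis and the nucleolus, 32 fell and none rose in A2780, with a median log2 FC of -0.88, and 29 fell and 2 rose in A2780cis, with a median of -0.82. Over all genes the medians were 0.02 and 0.04, with 26.1% lower and 28.6% higher in A2780, and 28.9% and 31.0% in A2780cis. Both lists of induced targets were chosen with earlier results of these data known, and the paper reports ribosome biogenesis pathways as inhibited. UTP20, a subunit of the small subunit processome, fell by 1.87 and 1.66 on the log2 scale. In A2780 NOLC1 (-1.12) and the nucleolar protein gene NCL (-1.22) followed by p-value, and in A2780cis POLR1B (-1.18), a subunit of RNA polymerase I, and WDR43 (-1.29). NHP2 (0.36) and WDR74 (0.27) were the genes that rose in A2780cis, and NHP2 fell in A2780 (-0.29). NHP2 and WDR74 were named after their values were seen.

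The 34 induced targets of metabolism, translation and the cell cycle behaved alike, with 25 lower and 2 higher in A2780 at 12 h and 23 lower and 2 higher in A2780cis, and medians of -0.62 and -0.59. The median interaction at 12 h was 0.16 for the ribosomal list (3 of 34 higher, 3 lower) and -0.03 for this list (6 of 34 higher, 5 lower). Over all genes it was -0.04, with 9.70% higher and 14.0% lower. HK2, the glycolytic hexokinase, fell by 2.12 and 2.00, AMD1 of polyamine synthesis by 1.67 and 1.44, the transferrin receptor gene TFRC by 1.13 and 1.94, and PRPS2 of nucleotide synthesis by 0.39 and 1.41 on the log2 scale in A2780 and A2780cis. The 2 genes higher in A2780, named after their values were seen, were E2F2 (0.76) and SHMT1 (0.41), and those higher in A2780cis were NME1 (0.66) and CDK4 (0.25). At 6 h fewer had changed: of the ribosomal list 12 fell and 2 rose in A2780 and 15 fell and 3 rose in A2780cis, and of the other list 7 fell and 6 rose in A2780 and 10 fell and 1 rose in A2780cis.

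**Figure D4:**
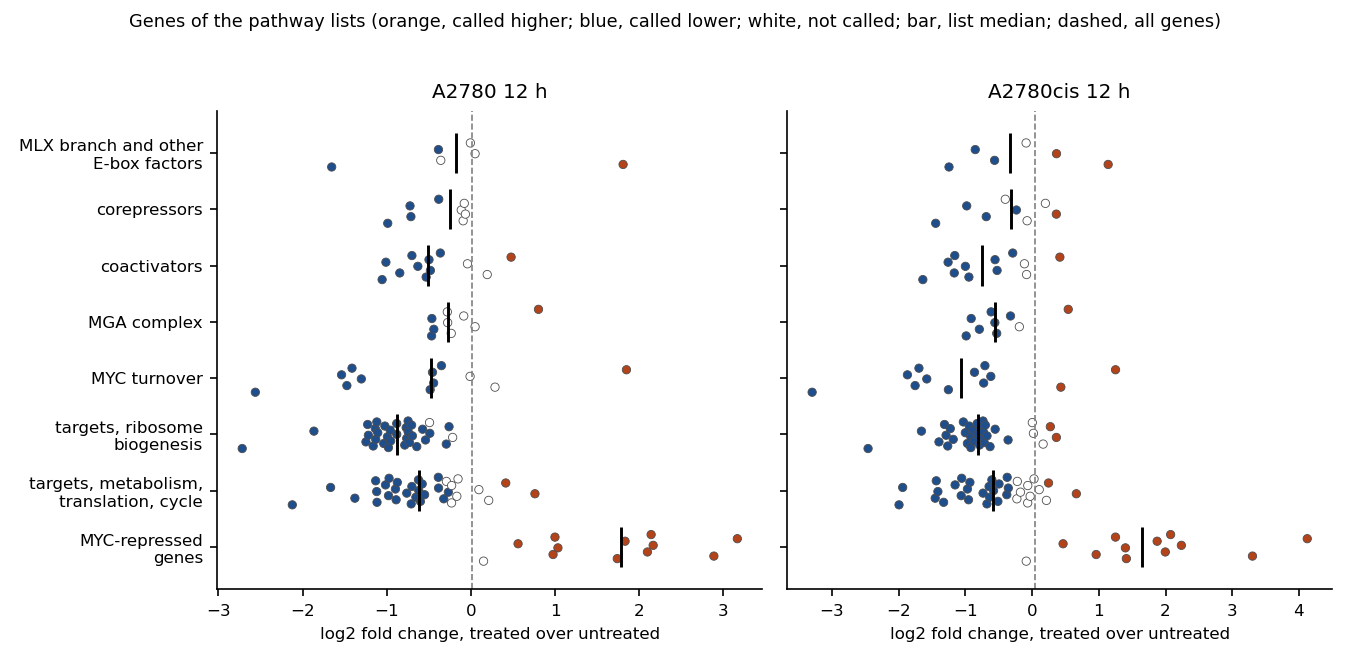
Log2 FC of treated over untreated at 12 h (x axis) for the genes of 8 pathway lists (y axis) in A2780 (left) and A2780cis (right). Points are genes (orange, called higher; blue, called lower; white, not called), black bars list medians and the dashed line the median of all genes. Both induced-target lists have medians between -0.88 and -0.59, and the list of MYC-repressed genes has medians of 1.79 and 1.64.

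The E-box was looked for in both lists of induced targets. The letters CACGTG stood in the windows of 12 of the 26 ribosomal targets and 15 of the 30 other targets that had one, against 8.77% of all 27305 symbols. The lists were chosen as known MYC targets, and the 8.77% covers all symbols with a window, not only genes tested here. HK2, UTP20 and WDR43, which fell in both lines, carry them within the stretches shown here, 30 bases on the gene's strand 5′ to 3′ with the E-box in capitals.
HK2, chr2:74834964-74834993, plus strand: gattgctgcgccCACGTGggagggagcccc
UTP20, chr12:101280083-101280112, plus strand: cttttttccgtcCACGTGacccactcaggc
WDR43, chr2:28894658-28894687, plus strand: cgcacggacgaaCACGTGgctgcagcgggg

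These E-boxes began 194 bases before a gene start of HK2 (1 of 2 in that window), 10 bases before that of UTP20 and 3 bases after that of WDR43. Another HK2 window, at chr2:74833877-74834176, did not hold these letters. AMD1, TFRC, PRPS2, NCL and POLR1B, which also fell, had windows without these letters. In A2780 at 12 h, 11 of 12 ribosomal targets with the E-box and 13 of 14 without it fell, and 14 of 15 and 9 of 15 of the other targets. In A2780cis the counts were 10 of 12 and 11 of 14, and 11 of 15 and 9 of 15.

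Most genes described as repressed by MYC went the other way. This list too was chosen with earlier results of these data known, and the paper reports CDKN1A and GADD45 as up-regulated. Of its 12 genes, 11 rose and none fell at 12 h in each line, with medians of 1.79 and 1.64. Among all genes 28.6% rose and 26.1% fell in A2780, and 31.0% and 28.9% in A2780cis. NDRG1, CDKN2B and CDKN1C were very low in A2780 at 12 h, at 0.06, 0.27 and 0.47 CPM untreated and 0.28, 1.20 and 1.59 CPM treated. CDKN1A, the p21 inhibitor of cyclin-dependent kinases, rose by 2.89 in A2780 and by 4.12 in A2780cis on the log2 scale, GADD45A by 3.17 and 3.30, and GADD45B by 2.14 and 1.87. TXNIP, which restrains glucose uptake and is also a known target of MLXIPL and MLXIP, rose by 1.83 and 2.08. CDKN1B was the gene without a call (0.15 and -0.09). CDKN1A and GADD45A are also known targets of p53, so that the list is not specific to MYC.

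The genes whose mean log2 CPM followed that of MYC most closely over the 8 groups were PDCD2L (Pearson r = 0.964), TWNK (0.958), SLC43A1 (0.948), FAM72A (0.947) and NR2F1 (0.946), out of 12517 genes compared. For MAX they included CAMLG (0.964), ENSG00000274021 (0.963), PTPRA (0.957) and CAMKK2 (0.956). These r values describe 8 group means that share lines, times and treatment, and carry no test.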

How the data were processed

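RNA of 24 libraries (8 groups of 3) was extracted with a miRNeasy kit and DNase and prepared with a TruSeq Stranded Total RNA kit. According to the study's methods and the submitters' processing notes, reads were trimmed with Trimmomatic and aligned with STAR 2.5.2b to GRCh38.p7, and exon reads were counted with featureCounts, with reads that overlap several genes or map to several places counted in fractions. The deposited values are therefore expected counts, not all whole. The strand setting of the counting is not given in the sources used here, which also differ on single or paired reads. Counts were rounded. Genes passing edgeR's filterByExpr (minimum count 10, minimum total 15; 20240 genes) were normalised by TMM and fitted with quasi-likelihood models in edgeR 4.0.16 (R 4.3.3) that held 1 coefficient for each group and left 16 residual degrees of freedom, with Benjamini-Hochberg adjustment and a threshold of 0.05. The fit was tested on simulated data.

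TPM used summed exon lengths of GENCODE release 44, which matched 56948 of 63299 gene identifiers, and at most 0.487% of a library's counts lacked a match. Alternatives were DESeq2 1.42.0 (Wald test and size factors), library totals alone, no filter, unrounded counts, the compared samples alone, a replicate block, the longest transcript and each library left out. Libraries of 1 group shared replicate numbers with other groups, but same-numbered libraries did not deviate together, so the numbers were not taken as pairs. The members and gene lists were chosen with earlier results of these data known. All 10 members were named in every comparison, with the 3 called genes of smallest p in each list at 12 h, other members of lists of at most 12 genes, and the 5 genes of highest correlation with MYC and MAX (mean log2 CPM of at least 2). Some genes that this rule would name are not reported here.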

Additional observations from a re-analysis of the deposited data

Results flagged for a closer look

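The 12 h response differed between the lines, by the test of the interaction (A2780cis minus A2780, log2, edgeR's quasi-likelihood test), for MYC by 0.88, for MXD1 by 0.44, for MXI1 by 0.61 and for MGA by -0.93. The adjusted p was 0.000254, 0.0445, 0.00781 and 0.000874 in edgeR.

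The response differed between 6 h and 12 h (12 h minus 6 h, log2) in A2780 for MYC by -0.67, for MXD1 by 0.87 and for MXD3 by -0.58, and in A2780cis for MXD1 by 0.74 and for MGA by -0.72. The MYC difference in A2780 goes with an untreated level of 61.7 ± 11.3 CPM at 6 h and 94.1 ± 8.15 CPM at 12 h, and treated levels of 36.2 and 34.8 CPM. The MXD3 difference goes with a change of its neighbour PRELID1 in the same direction, and the part of PRELID1 in it was not tested. Groups of 3 libraries were not tested for single libraries far from the others.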

How the results depend on the processing

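Of 49 calls of members over 12 comparisons, 37 were kept in every alternative (17 of 23 in the treatment comparisons), and no called value changed sign. With no filter on low counts, 3 members were called in A2780 at 6 h (5 as reported) and 2 in the 12 h interaction (4 as reported). In the 6 h interaction, where none was called, 1 was called with library totals alone and 1 with DESeq2. Leaving out single libraries gave 3 to 4 calls in A2780 at 6 h (3 without untreated replicate 1 or 3 or treated replicate 1 or 2) and 0 to 1 in the 6 h interaction (1 without treated A2780 replicate 3). The causes were not tested. When libraries were scaled by totals alone, the all-gene median log2 FC went from 0.02 to 0.24 in A2780 at 12 h and from 0.04 to 0.15 in A2780cis at 12 h, and the share of higher calls from 52.3% to 70.7% in A2780 at 12 h and from 47.0% to 61.4% in A2780cis at 6 h.

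Values that changed sign were all uncalled and near 0. MYCL in A2780 at 6 h was -0.0346 with DESeq2 size factors, -0.0343 with the DESeq2 Wald test and -0.00605 in the compared samples alone. MXD3 in A2780cis at 6 h was -0.00968 and -0.00983 with DESeq2 size factors and test. In the untreated line difference at 6 h MGA was -0.022 with DESeq2 size factors, -0.0213 with its test, -0.0785 with library totals and -0.0701 in the compared samples alone, and MNT was -0.0461 with library totals and -0.0357 in the compared samples alone. With library totals MAX in A2780 at 12 h was 0.0192, and over time in untreated A2780cis MYC was 0.0514, MYCL 0.0012 and MAX 0.146. MAX there was also 0.0262 without a filter and 0.0548 in the compared samples alone. The change of the MGA response over time in A2780 was -0.0256 without a filter.

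Leaving out single libraries changed the sign of these values. Treatment responses ran from -0.135 to 0.179 (MYCL) and -0.0162 to 0.187 (MXD1) in A2780 at 6 h, -0.0172 to 0.146 (MNT) in A2780 at 12 h, and -0.0987 to 0.0889 (MXD3) and -0.102 to 0.103 (MXI1) in A2780cis at 6 h. The MAX interaction at 6 h ran from -0.0523 to 0.0731. The 12 h response minus that at 6 h ran from -0.00519 to 0.0958 (MAX) and -0.059 to 0.0944 (MGA) in A2780, and from -0.0891 to 0.0748 (MYC), -0.0269 to 0.318 (MXD4) and -0.273 to 0.0414 (MNT) in A2780cis. Untreated line differences ran from -0.0447 to 0.166 (MNT), -0.237 to 0.218 (MXD4) and -0.154 to 0.177 (MGA) at 6 h and from -0.0905 to 0.143 (MXD4) at 12 h. Time differences in untreated A2780cis ran from -0.322 to 0.0402 (MYCL) and -0.0919 to 0.0167 (MAX).

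Same-numbered libraries correlated from -0.254 to 0.312 over 12 pairs, with 1 pair over 0.1, so that the numbers do not pair the samples. With the replicate number as a block, the members called were 5 in A2780 at 6 h, 5 in A2780 at 12 h, 6 in A2780cis at 6 h and 7 in A2780cis at 12 h, and MYCL in A2780 at 6 h was -7.21e-05. Of the target lists, the block moved 1 count by over 1.5 times, the growth targets higher in A2780cis at 6 h, from 1 to 2.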
